A study of Mus musculus with 16 samples.

Results

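The 10 genes Gdnf, Fgf2, Kitl, Csf1, Cxcl12, Lif, Igf1, Inhba, Bmp4 and Wnt5a, which encode secreted growth factors and cytokines of the testis niche or of fibroblast feeder layers, were followed across 12 RNA libraries from mouse male germline stem cells in culture. They were chosen by name, as the rows of the deposited tables with these symbols, and each of the 10 was found among 27128 genes. All cells came from postnatal day 5.5 mice (B6;CBA-Tg(Pou5f1-EGFP)2Mnn/J), a strain in which GFP is driven by regulatory sequence of Pou5f1 (Oct4). Oct4-positive, KIT-negative germ cells had been sorted and then grown in StemPro-34 SFM with added GDNF, bFGF and EGF, so the proteins of Gdnf and Fgf2 were supplied to every culture. The feeder-removal experiment had 1 library from cells on mouse embryonic fibroblasts (MEF, day 0) and 1 each from 4 and 9 days after the move to Matrigel, a basement membrane extract. The density experiment compared an epithelial-like culture on Matrigel at 0.1 µg/cm2 with a mesenchymal-like one on Matrigel at 10 µg/cm2. The sort experiment split cells grown on Matrigel at 10 µg/cm2 into GFP-low, mid and high fractions. In the inhibitor experiment cells on MEF received DMSO, the solvent, or 0.5, 1 or 2 µM UNC0638, an inhibitor of the histone methyltransferases G9a and GLP, and the treatment lasted 48 h. Whether feeder cells were removed before RNA extraction, and how many cultures or mice stood behind a library, is not given in the sources used here.

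In the testis, spermatogonial stem cells depend on factors made by the somatic cells around them. GDNF, made by Sertoli and peritubular cells, signals through GFRA1 and RET on the stem cell, and FGF2 and CXCL12 also support the stem cell pool, while KIT ligand acts on differentiating, KIT-positive germ cells. CSF1, WNT5A, LIF, IGF1, BMP4 and activin A (the dimer of the Inhba product) come from somatic cells in many tissues, cultured fibroblasts among them.

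Each group had 1 library (n = 1), so the differences below could not be checked against replicates, and p-values are left out. Library totals ran from 4335185 to 12019651 expected counts. A count of 0 allows up to 3 counts, which is 0.238 to 0.724 CPM (counts scaled by the library total times its TMM factor). Levels of different genes are compared in TPM (transcript levels corrected for length), and 1 gene is compared between libraries by the log2 ratio of (CPM + 1). A gene is called higher or lower where that ratio reaches 2-fold. The interval in brackets is a 95% Clopper-Pearson interval of the read split between the libraries, without the added 1, and covers counting error only. For low genes it can therefore lie off-centre from the ratio. Of the 10 genes, 8 passed the filter of a mean of at least 1 CPM, and Gdnf and Fgf2 did not. Lif passed through its level in the mesenchymal-like library alone, so a difference in that library was built into its passing.

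Before the ligands, the cell types in the libraries were checked by their markers. A list of 18 germ-cell genes summed to between 4001 and 6603 TPM in all 12 libraries. A list of 20 fibroblast genes (collagens, Pdgfra, Pdgfrb, Dcn, Lum and others) summed to 2853 TPM in the mesenchymal-like library and 1469 TPM in the DMSO library, against 45.1 to 518 TPM in the other 10. Of its members, Fap was at 0 in 11 libraries. The day 0 library, also from cells on MEF, had 142 TPM. These sums do not tell fibroblasts from other cultured cells that express the same genes. Macrophage genes (14 in the list) summed to 2837, 2755 and 380 TPM in the GFP-low, mid and high libraries and to 13.9 to 66.0 TPM elsewhere. The Sertoli list of 11 genes summed to 414 to 700 TPM with 5 to 8 genes above the floor. Most of that sum came from Dmrt1 (287 to 558 TPM) and Trf (78.4 to 168 TPM), and Clu was at 4.81 to 38.8 TPM. Sox9, Wt1, Gata4, Cldn11 and Amhr2 reached at most 8.07 TPM. Fshr was at 0 in all 12 libraries and Amh had at most 2 counts. Sox9 was at 4.69 and 22.7 CPM in the epithelial-like and the mesenchymal-like library, the 1 gene called among the 7 tested of this list. Of those 7, 3 were above 0 and 4 below, and the list summed to 619 and 514 TPM. Of the Leydig cell list, 1 or 2 of 7 genes were above the floor in any library, and endothelial genes summed to 5.05 to 9.21 TPM. In bulk RNA, fewer cells of a type and less RNA per cell cannot be told apart.

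The sequences in front of 3 of the ligands are shown because Cxcl12, Csf1 and Inhba were the 3 highest members in the DMSO library, and Csf1 and Inhba the 2 highest in the mesenchymal-like one. Each is the 250 bases before a RefSeq start site on GRCm38.p6, 5′ to 3′ on the gene's strand. The Inhba start lies inside the annotated gene, downstream of its first base. Capitals mark matches to GGGCGG (the GC box) or its reverse complement in Cxcl12 and Csf1, and to TATAAA (the TATA box) in Inhba.
Cxcl12, chr6:117168285-117168534, plus strand: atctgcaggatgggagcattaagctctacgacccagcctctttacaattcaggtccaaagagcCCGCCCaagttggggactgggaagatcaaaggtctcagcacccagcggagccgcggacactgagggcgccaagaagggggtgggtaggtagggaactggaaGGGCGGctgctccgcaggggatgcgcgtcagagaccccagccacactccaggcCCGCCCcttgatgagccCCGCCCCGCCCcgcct
Csf1, chr3:107760470-107760719, minus strand: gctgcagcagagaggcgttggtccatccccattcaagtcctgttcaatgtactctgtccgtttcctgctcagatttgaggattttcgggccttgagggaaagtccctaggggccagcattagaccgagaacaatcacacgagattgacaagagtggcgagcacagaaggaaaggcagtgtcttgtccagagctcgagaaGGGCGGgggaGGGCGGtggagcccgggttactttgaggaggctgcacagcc
Inhba, chr13:16011601-16011850, plus strand: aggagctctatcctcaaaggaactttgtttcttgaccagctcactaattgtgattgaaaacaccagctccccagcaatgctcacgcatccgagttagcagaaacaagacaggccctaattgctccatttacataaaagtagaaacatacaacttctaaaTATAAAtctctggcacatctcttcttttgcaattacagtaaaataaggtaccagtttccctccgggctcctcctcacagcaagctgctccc

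The 3 upstream sequences differed in base composition. The Cxcl12 window had a GC content of 64.4%, the Csf1 window 56.4% and the Inhba window 43.2%, where the median of all 32851 windows was 52.4%. Searched on both strands, GGGCGG was in 5 of the 9 ligands with a window (Fgf2, Kitl, Csf1, Cxcl12 and Bmp4) and in 32.7% of all windows. The Cxcl12 window held 5 matches, of which 2 overlapped by 1 base, and the Csf1 window held 2. TATAAA was found for Gdnf, Kitl and Inhba, and in 12.4% of all windows. In Inhba it lay 91 to 86 bases before the start. TGANTCA, the AP-1 motif, was found for Lif and Igf1 and in 6.75% of all windows, and CCAAT for Gdnf and Igf1 and in 33.8%. GGAATG (the TEAD motif, 12.6% of all windows) and TGACGTCA (the CRE, 1.55%) matched none of the 9. None of these motifs matched in all the ligands that were lower with UNC0638. Igf1 and Inhba have no GC box in these windows, and Wnt5a was not in the table.

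**Figure D1:**
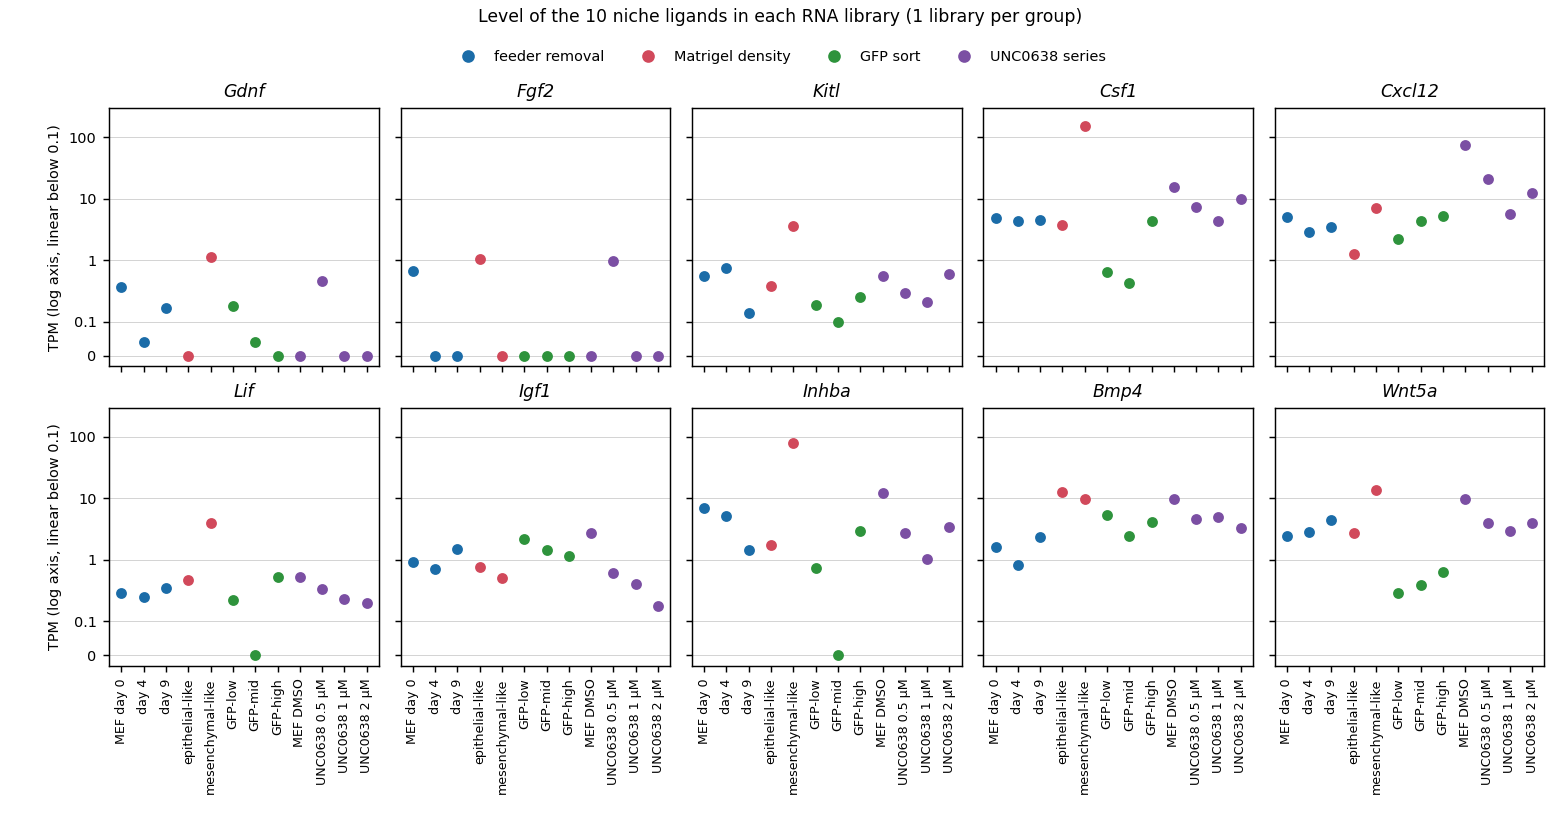
Level of each of the 10 ligands in the 12 RNA libraries, in TPM on an axis that is logarithmic above 0.1 and linear below; each point is 1 library and colours mark the 4 experiments. Csf1 (151 TPM) and Inhba (78.0 TPM) stand highest in the mesenchymal-like library, Cxcl12 (75.5 TPM) in the DMSO library, and Gdnf and Fgf2 stay near or below 1 TPM.

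The 2 ligands that were added to the medium as proteins were almost absent as transcripts. Gdnf (chr15:7810048-7837580), the main self-renewal factor for these cells, had expected counts of 6, 1 and 4 at days 0, 4 and 9. It had 0 in the epithelial-like and 11 in the mesenchymal-like library, and 3, 1 and 0 in the GFP-low, mid and high fractions. The DMSO library had 0, and the UNC0638 libraries had 5, 0 and 0 at 0.5, 1 and 2 µM. Its highest level was 1.12 TPM, in the mesenchymal-like library. Its CPM there, from 11 counts, was 3.77-fold the floor of 3 counts in the epithelial-like library. The counting interval of that log2 ratio began at 1.37. Fgf2 (chr3:37348477-37410106), which encodes bFGF, had 1 count in each of the day 0, epithelial-like and 0.5 µM libraries and 0 in the other 9. The gene model counted for Fgf2 was 465 bases long, the shortest of the 10, so reads from transcript outside those bases were not counted. Both genes were thus at or close to the detection floor on feeders and off them, and no ratio is given for Fgf2. The GDNF receptor genes were well detected in every library, with Gfra1 at 18.7 to 92.0 TPM and Ret at 47.1 to 162 TPM.

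Summed over the 10 ligands, the level was 269 TPM in the mesenchymal-like and 126 TPM in the DMSO library, and between 9.32 and 42.2 TPM in the other 10. The make-up of these 2 high sums differed. Csf1 gave 56.2% and Inhba 29.0% of the sum in the mesenchymal-like library, whereas Cxcl12 gave 59.7% in the DMSO library. In the epithelial-like library, with a sum of 25.0 TPM, Bmp4 gave 51.5%.

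Csf1 and Inhba were the ligands with the highest mesenchymal-like levels. Csf1 (chr3:107741048-107760469), the growth factor of macrophages and their precursors, was at 4.91, 4.41 and 4.57 TPM at days 0, 4 and 9. It was at 3.79 TPM in the epithelial-like and 151 TPM in the mesenchymal-like library, and at 0.65, 0.43 and 4.34 TPM in the GFP-low, mid and high fractions. In the inhibitor experiment Csf1 was at 15.5 TPM with DMSO and at 7.28, 4.38 and 9.80 TPM with 0.5, 1 and 2 µM UNC0638. Apart from the mesenchymal-like and DMSO libraries, no library exceeded 10 TPM. In order of level, the neighbours differed beyond their counting interval in 5 of 11 places, the most among the 10 ligands.

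Inhba (chr13:16004256-16031609), which encodes the activin A subunit, was at 6.84, 5.23 and 1.46 TPM at days 0, 4 and 9. It was at 1.74 TPM in the epithelial-like and 78.0 TPM in the mesenchymal-like library. The GFP-low, mid and high fractions had 0.74, 0 and 2.92 TPM. With DMSO it was at 12.2 TPM, and with 0.5, 1 and 2 µM UNC0638 at 2.71, 1.01 and 3.40 TPM. Its order of levels began as that of Csf1 did, with the mesenchymal-like library first and DMSO second, and the day 0 library came next.

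Cxcl12 (chr6:117168535-117181368), the chemokine that binds CXCR4, had another pattern. It was at 4.99, 2.87 and 3.52 TPM at days 0, 4 and 9, and at 1.27 and 7.18 TPM in the epithelial-like and the mesenchymal-like library. The GFP-low, mid and high fractions had 2.19, 4.45 and 5.27 TPM. The DMSO library had 75.5 TPM, and the UNC0638 libraries had 21.0, 5.69 and 12.4 TPM at 0.5, 1 and 2 µM. All 12 libraries held Cxcl12, and DMSO was highest. The length of its model, built from 3 transcripts, ran from 1976 to 3134 bases between libraries, so its TPM and CPM do not move in parallel. Cxcr4, its receptor gene, was at 0 to 1.45 TPM.

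Wnt5a (chr14:28504543-28527448), a ligand of non-canonical Wnt signalling, was at 2.44, 2.78 and 4.49 TPM at days 0, 4 and 9. It was at 2.68 and 13.7 TPM in the epithelial-like and the mesenchymal-like library and at 0.29, 0.39 and 0.64 TPM in the GFP-low, mid and high fractions. DMSO had 9.57 TPM, and the 3 doses had 3.99, 2.98 and 3.94 TPM. The 3 sorted fractions were the lowest of the 12. Bmp4 (chr14:46383525-46390669), a bone morphogenetic protein, was at 1.59, 0.83 and 2.33 TPM at days 0, 4 and 9 and was highest in the epithelial-like library, at 12.9 TPM, with 9.81 TPM in the mesenchymal-like one. The GFP fractions had 5.38, 2.46 and 4.04 TPM of Bmp4, DMSO 9.82 TPM, and the 3 doses 4.55, 4.99 and 3.33 TPM. Bmp4 was the one of the 5 better-detected ligands that was not highest in the mesenchymal-like or the DMSO library.

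Kitl, Lif and Igf1 were low everywhere. Kitl (chr10:100015615-100100416), the ligand of KIT, was at 3.67 TPM in the mesenchymal-like library and at 0.10 to 0.76 TPM in the other 11. Lif (chr11:4257568-4272514), a cytokine of the interleukin-6 family, was at 3.93 TPM in the mesenchymal-like library and at 0 to 0.53 TPM elsewhere. Igf1 (chr10:87858265-87937047), insulin-like growth factor 1, was highest with DMSO, at 2.72 TPM, and next in the GFP-low fraction, at 2.19 TPM. The UNC0638 libraries had 0.60, 0.40 and 0.18 TPM, the last 2 of them the lowest of the 12, and no 2 neighbours in its order of 12 differed beyond their counting interval. In the mesenchymal-like library Igf1 was at 0.51 TPM, from 3 counts. Of the receptor genes for these ligands, Kit was at 7.87 to 46.5 TPM, Lifr at 7.79 to 15.5 TPM, Il6st at 16.0 to 44.3 TPM and Igf1r at 13.1 to 37.4 TPM over the 12 libraries.

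The feeder-removal experiment asks which ligands leave the culture with the feeders. At day 4 none of the 8 tested ligands was called against day 0, where 2.28% of all 14301 tested genes were. At day 9 Inhba and Kitl were lower and none was higher, 2 of 8 against 2.6% of all genes called in either direction and 0.979% called lower. Inhba was at 5.83, 4.40 and 1.14 CPM at days 0, 4 and 9, and the day 9 to day 0 log2 ratio was -1.68 (-3.34 to -1.47). The difference lay after day 4: day 9 against day 4 gave -1.34 (-2.92 to -1.08) for Inhba, and day 4 against day 0 gave -0.34 (-1.01 to 0.20). Kitl was at 1.82 and 0.407 CPM on days 0 and 9, from 14 and 5 counts. Its ratio of -1.0 lay right at the threshold, and the call was lost with the deposited TPM (-0.44) and with 4 other settings. The Inhba call was lost with a pseudocount of 5, and with a filter at 10 CPM Inhba was not tested.

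Csf1 and Wnt5a were not called lower off the feeders. Csf1 had 12.2, 10.8 and 10.4 CPM at days 0, 4 and 9, with a day 9 ratio of -0.21 whose interval included 0. Wnt5a went the other way, from 6.22 CPM at day 0 to 10.5 CPM at day 9, a ratio of 0.67 (0.27 to 1.26) that stayed under 2-fold. Cxcl12 had 6.87 CPM at day 0 and 4.47 CPM at day 9, a ratio of -0.52 (-1.19 to -0.05). The fibroblast list did not separate these libraries either: it summed to 142, 142 and 163 TPM at days 0, 4 and 9. Of its 19 tested genes, 2 were higher and 1 lower at day 9. The day 0 sum, from cells on MEF, was thus no higher than the sums at days 4 and 9. Smooth-muscle and peritubular genes summed to 71.2 TPM at day 0, 83.6 TPM at day 4 and 25.6 TPM at day 9. Most of that difference was in Acta2, at 44.6, 59.25 and 7.48 TPM. At day 9 against day 0, 1 of the 5 tested genes of this list was called lower and none higher. Des was at 0.63 TPM at day 0 and 2.01 TPM at day 9. The part of these genes in the Inhba difference was not tested. The members' median ratio at day 4 was -0.22, beside 0.03 for all tested genes.

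Among the comparisons within an experiment, that of Matrigel density gave the widest ligand differences. The 3 sorted libraries, also grown on Matrigel at 10 µg/cm2, did not share the high mesenchymal-like levels. Their ligand sums were 9.32 to 19.15 TPM, beside 25.0 TPM in the epithelial-like and 269 TPM in the mesenchymal-like library. Csf1 was higher in the mesenchymal-like than in the GFP-low library by a log2 ratio of 7.35 (7.26 to 8.95). Experiment and sorting cannot be told apart there. Between the mesenchymal-like and epithelial-like libraries 6 of 8 tested ligands were higher (Csf1, Inhba, Kitl, Lif, Wnt5a and Cxcl12) and none lower, where 12.5% of all genes were called and 10.7% were called higher. The median log2 ratio of the 8 was 2.31, against -0.06 over all tested genes. Lif passed the filter through the mesenchymal-like library alone, so its place among the 6 and its part in the median were built in. Csf1 was at 10.3 and 429 CPM in the epithelial-like and the mesenchymal-like library, a log2 ratio of 5.25 (4.95 to 5.84), and Inhba was at 1.64 and 76.1 CPM, a ratio of 4.87 (4.47 to 6.86). Kitl (1.41 and 13.8 CPM) had a ratio of 2.62 (2.08 to 4.79), and Lif (1.17 and 10.1 CPM) one of 2.36 (1.78 to 4.81). Wnt5a (7.51 and 40.1 CPM) had 2.27 (1.86 to 3.01), and Cxcl12 (1.88 and 9.66 CPM) 1.89 (1.25 to 3.67). Bmp4 was at 16.2 and 12.8 CPM, a ratio of -0.32 (-0.88 to 0.20), and Igf1 was at the floor in both.

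Fibroblast markers moved with these ligands. Of the 19 tested fibroblast genes 18 were higher in the mesenchymal-like library, with a median log2 ratio of 4.62, and the list summed to 109 TPM in the epithelial-like and 2853 TPM in the mesenchymal-like library. Smooth-muscle and peritubular genes summed to 7.94 and 265 TPM. Csf1 and Inhba differed by more than the fibroblast median and the other 4 called ligands by less. The part of these cells in the ligand differences was not tested.

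**Figure D2:**
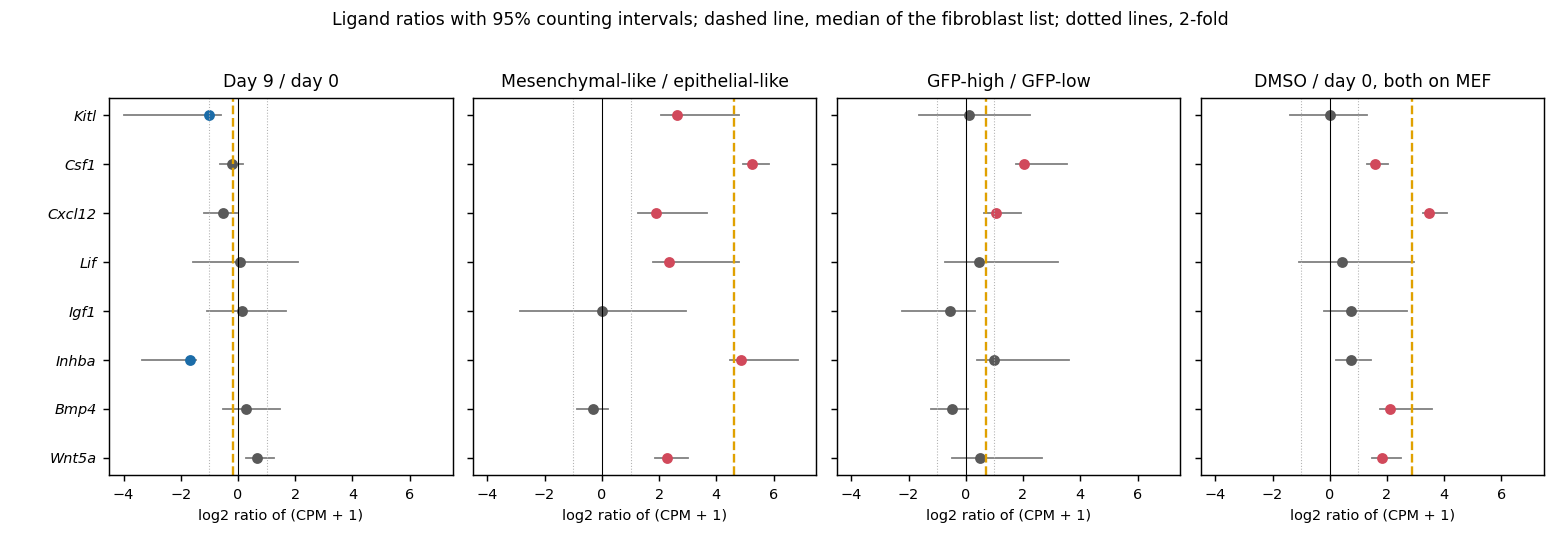
Log2 ratio of (CPM + 1) for the 8 tested ligands in 4 comparisons, with 95% counting intervals computed without the added 1; coloured points are called at 2-fold (red higher, blue lower), dotted lines mark 2-fold, and the dashed line is the median of the fibroblast list. In the density comparison Csf1 (5.25) and Inhba (4.87) lie above the fibroblast median of 4.62 and Cxcl12 (1.89) lies far below it, whereas between the DMSO and day 0 libraries Cxcl12 (3.48) is the only ligand above the fibroblast median of 2.88.

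The GFP sort separates cells by the activity of the Oct4 reporter. Between GFP-mid and GFP-low none of the 8 ligands was called, where 4.07% of all genes were. Between GFP-high and GFP-low Csf1 and Cxcl12 were higher and none was lower, 2 of 8 against 9.54% of all genes called and 6.94% called higher. Csf1 had 1.63, 1.03 and 9.77 CPM in the low, mid and high libraries, and the high to low ratio was 2.03 (1.74 to 3.55). Only GFP-high stood apart for Csf1, with a ratio to GFP-mid of 2.41 (2.40 to 4.21). Cxcl12 was at 3.64, 7.29 and 8.70 CPM, a ratio of 1.07 (0.63 to 1.92) between high and low, and was not called with the deposited TPM.

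Bmp4 and Inhba were not called between GFP-high and GFP-low. Bmp4 was at 6.14, 2.69 and 4.14 CPM in the low, mid and high fractions, and the mid fraction was lowest, with a ratio to low of -0.95 (-1.87 to -0.53). Inhba had 5, 0 and 21 counts, a high to low ratio of 0.99 (0.38 to 3.59), just under the threshold, and it was called with the deposited TPM (1.17). Against GFP-mid, where Inhba had no count, its CPM in GFP-high was 9.38-fold the floor of 3 counts. The counting interval of that log2 ratio began at 2.80. The fibroblast list summed to 45.1, 62.0 and 120 TPM in the 3 fractions, with 9 of 19 tested genes higher in GFP-high than in GFP-low. Macrophage genes went the other way, with the sums of 2837, 2755 and 380 TPM given above, and Csf1r, the receptor of CSF1 and a macrophage marker, was at 52.5, 50.3 and 5.20 CPM. Csf1 was thus lowest in the 2 fractions with the most Csf1r. The part of either cell type in the ligand values was not tested.

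UNC0638 was given to cells on feeders, and 5 of the 8 tested ligands were lower at each dose while none was higher. The background was 3.71%, 6.71% and 7.01% of all genes called at 0.5, 1 and 2 µM, of which 2.13%, 4.12% and 3.59% of all genes were called lower. The median ligand ratio was -1.07, -1.44 and -1.24 at the 3 doses, beside -0.01, -0.0019 and -0.02 over all tested genes. The 5 were Csf1, Cxcl12, Igf1, Inhba and Wnt5a at 0.5 and at 1 µM, and Cxcl12, Igf1, Inhba, Bmp4 and Wnt5a at 2 µM. Fewer ligands were called at 0.5 and 2 µM with a pseudocount of 5, and at each dose with a filter at 10 CPM. These 3 comparisons share the DMSO library, so a high value in it enters all of them. Igf1, with a mean of 1.02 CPM, would not have passed the filter without the DMSO library, nor without GFP-low or GFP-mid, so its lower values at the 3 doses were in part built into its passing.

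Cxcl12 had the lowest ratios at 1 and 2 µM. It was at 87.0 CPM with DMSO and at 26.8, 9.25 and 14.4 CPM with 0.5, 1 and 2 µM, and its log2 ratios were -1.66 (-1.99 to -1.42), -3.10 (-3.67 to -2.82) and -2.51 (-3.00 to -2.21). Inhba, at 10.4 CPM with DMSO, was at 2.31, 0.873 and 2.98 CPM, with ratios of -1.78 (-3.21 to -1.24), -2.60 (-5.25 to -2.26) and -1.52 (-2.80 to -0.90). Both were lowest at 1 µM and not at the top dose. Wnt5a, at 24.4 CPM with DMSO, was at 10.2, 7.68 and 10.3 CPM, with ratios of -1.18 (-1.75 to -0.78), -1.55 (-2.20 to -1.16) and -1.16 (-1.77 to -0.74).

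Csf1 and Bmp4 were called at some doses. Csf1 was at 38.3 CPM with DMSO and at 18.1, 11.0 and 25.0 CPM at the 3 doses, with ratios of -1.04 (-1.45 to -0.72), -1.71 (-2.24 to -1.38) and -0.60 (-0.97 to -0.27), the last under 2-fold. With the deposited TPM the ratio at 0.5 µM was -0.99, so that call was lost and 4 ligands were called at that dose. At 2 µM it was above 1 µM by a log2 ratio of 1.11 (0.72 to 1.65), and so were Inhba, by 1.09 (0.19 to 3.61), and Cxcl12, by 0.59 (0.09 to 1.20). Wnt5a, with 0.38 (-0.21 to 1.06), did not separate the 2 doses beyond counting error. Bmp4, at 11.2 CPM with DMSO and 5.20, 5.76 and 3.89 CPM at the 3 doses, had ratios of -0.97 (-1.82 to -0.42), -0.85 (-1.62 to -0.31) and -1.32 (-2.40 to -0.72). Igf1 had 12 counts with DMSO and 3, 2 and 1 at the 3 doses, so its calls, with ratios of -1.11, -1.33 and -1.47, rest on few reads. Kitl and Lif had intervals that included 0 at every dose.

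**Figure D3:**
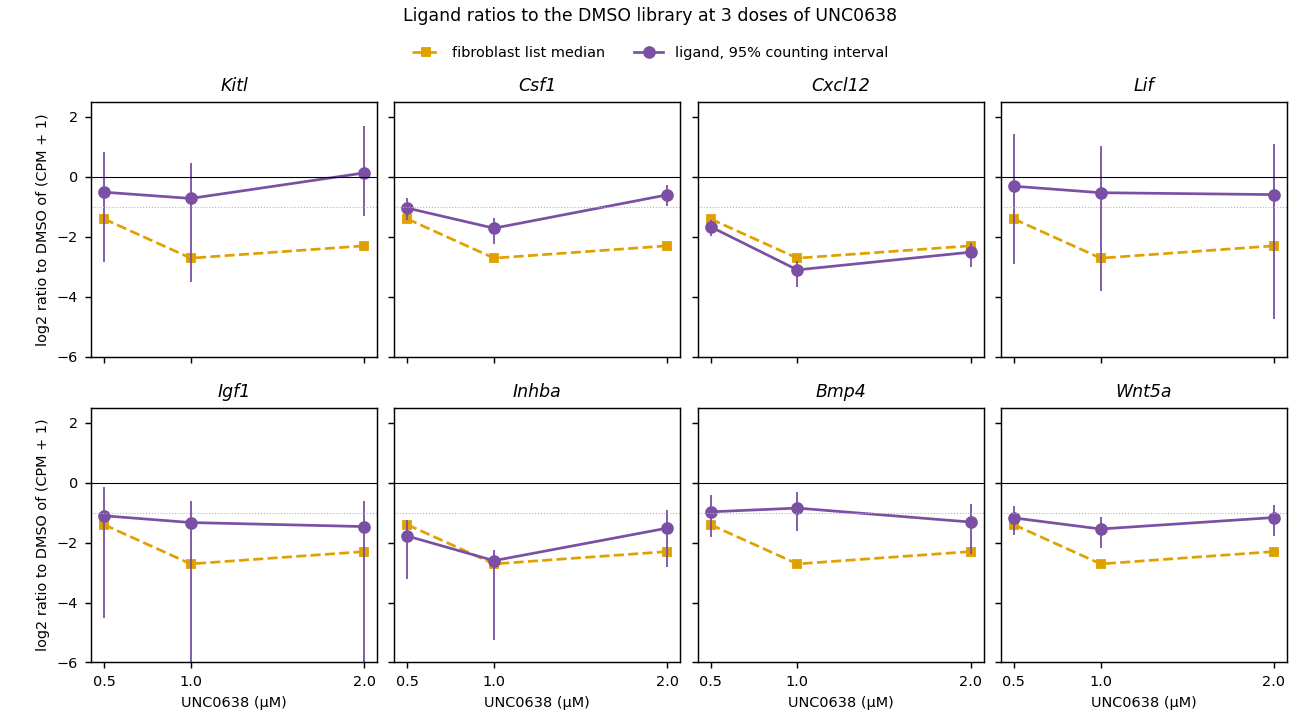
Log2 ratio of (CPM + 1) to the DMSO library at 0.5, 1 and 2 µM UNC0638 for the 8 tested ligands (circles, with 95% counting intervals computed without the added 1, cut at the lower edge for Igf1) and for the median of the fibroblast list (squares, dashed); 1 library per dose. Cxcl12 differs from the fibroblast median by -0.26, -0.39 and -0.21, whereas Csf1 lies above it by 0.36, 1.00 and 1.70.

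Fibroblast markers were lower with UNC0638 as well. Of the 19 tested fibroblast genes 15, 19 and 18 were lower at 0.5, 1 and 2 µM, with medians of -1.40, -2.71 and -2.30, and the list summed to 1469 TPM with DMSO and to 518, 193 and 258 TPM at the 3 doses. The germ-cell list summed to 5677 TPM with DMSO and 5891 to 6340 TPM with the drug. Its highest gene, Uchl1, was at 1622 TPM with DMSO and at 1986, 1964 and 2086 TPM at the 3 doses. The median log2 ratio of the 18 germ-cell genes was 0.16, 0.02 and -0.12, and at 2 µM 11 of them were below 0. The ligands were therefore also set against the reads of the fibroblast list in the same library. Cxcl12 had 22.8 (20.7 to 25.1) reads per 1000 fibroblast-list reads with DMSO and 20.2 (17.0 to 23.9), 17.5 (13.1 to 23.0) and 21.2 (16.2 to 27.2) at 0.5, 1 and 2 µM, with 95% Clopper-Pearson intervals that overlap throughout. The day 0 library, from the other experiment on MEF, had 20.1 (15.0 to 26.3). Per fibroblast-list read, the intervals of Cxcl12 overlapped in all 5 libraries on MEF, while its CPM in them ran from 6.87 to 87.0. This was not particular to MEF, since GFP-low had 28.5 (19.0 to 41.2), which overlapped with all 5. Day 4 had 15.3 (11.7 to 19.6), day 9 12.5 (9.41 to 16.3) and GFP-high 29.8 (23.6 to 37.2), which overlapped with some of the 5. GFP-mid, at 43.8 (35.1 to 53.9), lay above all 5 and the epithelial-like library, at 5.29 (2.28 to 10.5), below them.

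Csf1, Wnt5a and Bmp4 had higher values per fibroblast-list read at 1 µM than with DMSO, with intervals that did not overlap. Csf1 had 10.1 (8.68 to 11.6) reads per 1000 fibroblast-list reads with DMSO and 13.7 (11.0 to 16.8), 20.9 (16.0 to 26.8) and 36.6 (30.0 to 44.3) at the 3 doses. The intervals of DMSO, 1 µM and 2 µM did not overlap for Csf1. The day 0 library, on MEF without the drug, had 35.6 (28.7 to 43.7) for Csf1, which overlapped with 2 µM. Wnt5a had 6.39 (5.30 to 7.63) with DMSO and 7.71 (5.77 to 10.1), 14.6 (10.6 to 19.6) and 15.1 (11.0 to 20.3), and the day 0 library had 18.2 (13.4 to 24.2). Bmp4 had 2.93 (2.21 to 3.81) with DMSO and 3.93 (2.59 to 5.72), 10.9 (7.51 to 15.4) and 5.71 (3.32 to 9.16), so that 0.5 and 2 µM overlapped with DMSO, and 5.30 (2.89 to 8.91) at day 0. The day 0 library comes from another experiment, so experiment and treatment cannot be told apart in these values. Inhba had 2.72 (2.03 to 3.57) with DMSO and 1.75 (0.90 to 3.05), 1.66 (0.54 to 3.87) and 4.37 (2.32 to 7.48), all overlapping. The part of the fibroblast markers in the ligand differences with UNC0638 was not tested.

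The mesenchymal-like library, with the highest sum of fibroblast markers, had another ratio. Cxcl12 had 1.07 (0.77 to 1.46) reads per 1000 fibroblast-list reads there, below its value in each of the 5 libraries on MEF. Csf1 had 47.7 (45.5 to 50.1), above each of the 5 libraries on MEF. Inhba had 8.46 (7.54 to 9.45), above the 2.72 of the DMSO library but below the 17.0 (12.4 to 22.9) of the day 0 library. Set directly against DMSO, the mesenchymal-like library was higher for Csf1 by a log2 ratio of 3.45 (3.27 to 3.71), for Inhba by 2.76, for Kitl by 2.40 and for Lif by 2.34, and lower for Cxcl12, at -3.05 (-3.68 to -2.70). Bmp4 did not separate these libraries (0.18, -0.37 to 0.76). The libraries come from separate experiments, so experiment and culture cannot be told apart.

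**Figure D4:**
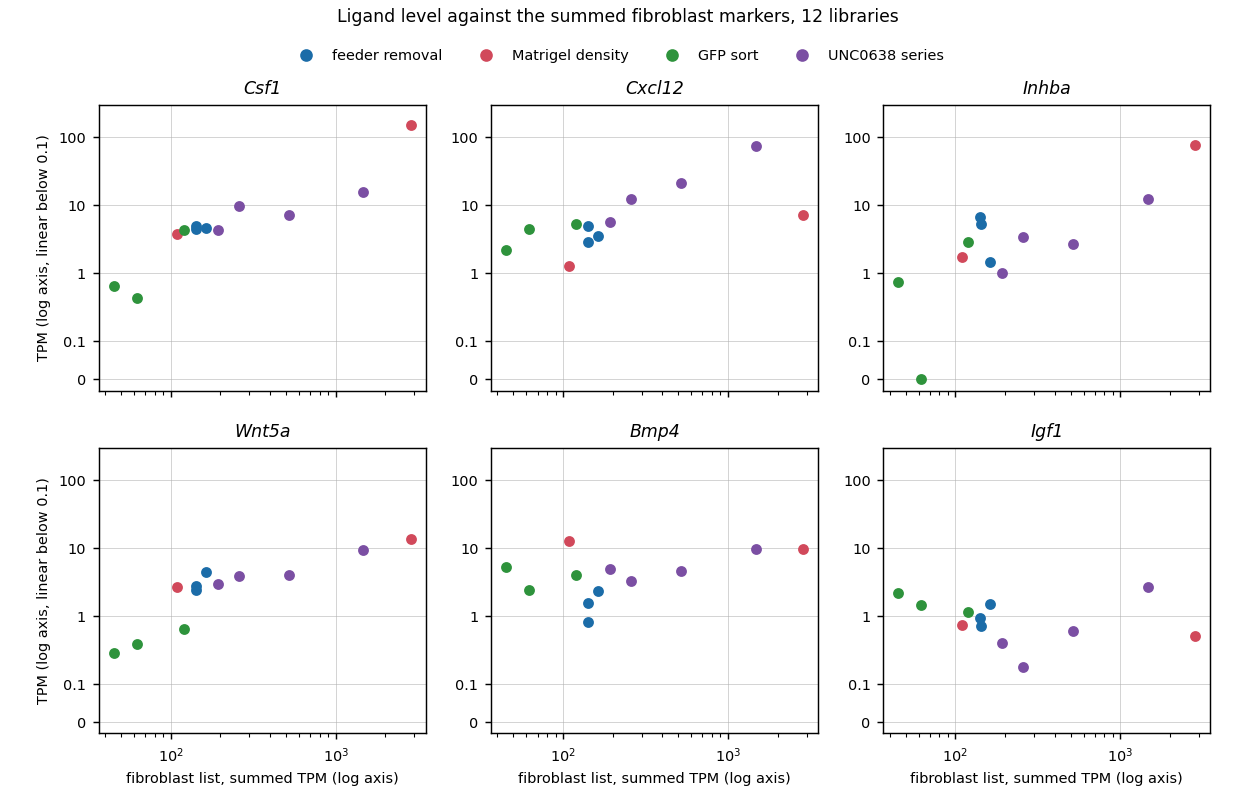
TPM of 6 ligands (vertical, logarithmic above 0.1 and linear below) against the summed TPM of the fibroblast list (horizontal, logarithmic) in the 12 RNA libraries, coloured by experiment. Csf1 and Wnt5a are highest in the 2 libraries with the highest fibroblast marker sums, Cxcl12 is at 75.5 TPM in the DMSO library but 7.18 TPM in the mesenchymal-like one, and Bmp4 is highest in a library with 109 TPM of fibroblast markers.

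The DMSO and day 0 libraries were both from cells on MEF, and they were set side by side. Csf1, Cxcl12, Bmp4 and Wnt5a were higher with DMSO and none lower, 4 of 8 against 19.4% of all genes called and 12.2% called higher. Cxcl12 was at 6.87 and 87.0 CPM in the day 0 and DMSO libraries, a ratio of 3.48 (3.25 to 4.10), and Bmp4 was at 1.82 and 11.2 CPM, a ratio of 2.11 (1.76 to 3.58). Wnt5a had a ratio of 1.81 (1.48 to 2.48) and Csf1 of 1.58 (1.29 to 2.03), while Inhba, at 0.74 (0.23 to 1.44), was not called. The fibroblast median was 2.88, with 18 of 19 tested genes higher. These libraries differ in experiment as well as in DMSO, which cannot be told apart.

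Receptors of these ligands were counted next. Of 24 receptor and co-receptor genes, 23 were tested, and 3 were higher and none lower in the mesenchymal-like library, among them Fgfr1, an FGF receptor, at 102 and 406 CPM (log2 ratio 1.98, 1.84 to 2.15). All genes were called at 12.5% in that comparison, so the receptor count was near the background. With UNC0638 no receptor was higher and 1, 2 and 2 of 23 were lower at the 3 doses, again near the 3.71%, 6.71% and 7.01% of all genes called. Ror2, a WNT5A receptor, was one of these at 1 and 2 µM, at 5.58 and 3.89 CPM against 15.2 CPM with DMSO. In GFP-high against GFP-low 6 receptor genes were higher and 3 lower, where 9.54% of all genes were called. Gfra1 and Ret, the GDNF receptor pair, had ratios of -1.57 and -1.16, and Csf1r had -3.11 (-3.79 to -2.91).

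Other secreted ligands of these families were counted too. Of 43 related ligand genes 23 were tested, and 12 were higher and 1 lower in the mesenchymal-like library, against 12.5% of all genes called. Ctgf, a matricellular growth factor, was at 11.7 CPM in the epithelial-like library and 532 CPM in the mesenchymal-like one, and Ccl2, a monocyte chemokine, at 3.05 and 155 CPM. With UNC0638, 5, 6 and 9 related ligands were lower at the 3 doses, against 2.13%, 4.12% and 3.59% of all genes called lower, and 0, 1 and 2 were higher. Ctgf had 40.1 CPM with DMSO, then 10.8, 3.66 and 8.48 CPM at the 3 doses, with its lowest level at 1 µM, like Cxcl12 and Inhba. Nrtn, the GDNF-family ligand neurturin, went the other way, at 10.4 CPM with DMSO and 35.8 and 22.0 CPM at 1 and 2 µM, ratios of 1.69 and 1.01. Of 23 genes for antagonists and binding proteins 22 were tested: 11 were higher and 1 lower in the mesenchymal-like library, with Igfbp7, an IGF-binding protein, at 3.05 and 266 CPM, and 2, 7 and 5 were lower with the 3 doses, with 1 higher at 2 µM, against the same shares of all genes.

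Across the 12 libraries, the genes whose log2(CPM + 1) ran most like each ligand were found by Pearson's r among 12449 or 12450 genes, as a description; libraries of 1 experiment share conditions. Csf1 was most like Col8a1 (r = 0.98), a collagen gene, Cav1 (0.98) and Anxa1 (0.98), and r was 0.94 to 0.95 without the mesenchymal-like library. Cxcl12 was most like C1r (0.92), a complement gene, Il1rn (0.92) and Svep1 (0.91), and leaving out the mesenchymal-like library changed none of these at 2 decimals. Inhba was most like Ctgf (0.96, and 0.88 without that library), and Inhba itself was among the 3 genes most like Kitl (0.94, and 0.82 without it). For Lif the nearest gene was Trim16, with 0.98 and 0.84, and the third, Ankrd1, had 0.95 and 0.66, so the likeness of Lif leaned on the mesenchymal-like library. Wnt5a was most like Grb10 (0.96) and Bmp4 most like the homeobox gene Hoxb2 (0.96), with 0.95 for both without that library.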

How the data were processed

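RNA was measured in 12 libraries made by a modified Smart-seq2 procedure, per the labels' protocols; the 4 ATAC-seq samples were not analysed here. Reads were processed with Trim Galore and RSEM on mm10, per the submitters' processing notes; their versions, the aligner and the annotation release are not given in the sources used here. The deposited expected counts are RSEM's estimated counts per gene, not normalized, per the file headers; 8.52% to 10.7% of genes in a library were not whole (tolerance 1e-06), and how shared reads were divided cannot be checked. The TPM, as deposited, correct for gene length and have a fixed sum in each library, per the file headers.

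Expected counts were rounded. CPM used TMM factors (0.912 to 1.07) from edgeR 4.0.16 in R 4.3.3, and 14301 genes whose mean over the 12 libraries reached 1 CPM were kept. The log2 ratio of (CPM + 1) was called at 2-fold over the whole table; the added 1 understates changes of low genes. Intervals (scipy 1.17.1) and the floor of 3 counts cover counting error only, since PCR copies were not marked by molecular identifiers. With 1 library per group no test was made. The steps were tested on simulated counts. The 10 members and the gene lists were chosen with earlier results of these data known. All members were named; list genes were named where called at 2-fold with 50 or more expected counts in the higher one of the libraries, or as receptors and markers of the members, and for each tested member the 3 genes of highest Pearson r were found. Alternatives were DESeq2 1.42.0 size factors, library totals, TPM, a filter at 10 CPM or none, pseudocounts of 0.1 and 5, centring on the germ-cell list, and a call that also needs the interval to exclude 0. Gene positions and the sequences before start sites are RefSeq's on GRCm38.p6, the build also named mm10; all 10 symbols matched, and 9 had a sequence. No protein sequences were used here.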

Additional observations from a re-analysis of the deposited data

How the results depend on the processing

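The counts of ligands called were recomputed under 9 alternatives in 9 comparisons, and 67 of 81 stayed within 1.5 times the value reported. A pseudocount of 5 gave 0 called at day 9, 1 in GFP-high against GFP-low, and 2 and 1 at 0.5 and 2 µM UNC0638, and a pseudocount of 0.1 gave 3 lower in GFP-mid against GFP-low. A filter at 10 CPM, which tests fewer genes, gave 0 at day 9, 3 in the density comparison, and 3, 3 and 2 at the 3 doses of UNC0638. At day 9 the library totals, the deposited TPM and germ-cell centring each gave 1, which was Inhba. Germ-cell centring gave 1 higher in GFP-mid against GFP-low, Cxcl12. The cause of the scaling differences was not tested. Of 432 recomputed log2 ratios none changed sign among called values, and 24 moved beyond their counting interval, 19 of them with the pseudocount of 5. The share of all genes called ran from 2.28% to 19.4% over the 9 comparisons as reported, from 7.17% to 25.3% with a pseudocount of 0.1 and from 0.119% to 9.08% with 5. Germ-cell centring moved the median of all tested genes to 0.26 in the density comparison and 0.38 between DMSO and day 0. It also moved the higher share of the genes called from 85.7% to 96.1% in the density comparison, from 62.8% to 88.2% between DMSO and day 0, from 83.2% to 94.1% in GFP-mid, from 62.4% to 72.6% at day 9, and from 42.6% to 22.0% and 48.8% to 64.5% at 0.5 and 2 µM. Depth limits Gdnf, Fgf2, Igf1, Lif and Kitl, whose highest counts in any library were 11, 1, 16, 42 and 57. No paired analysis was possible because each RNA group has 1 library and the ATAC-seq samples, which carry replicate numbers, were not analysed here.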
